A study of Mus musculus with 9 samples.

Results

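Aminoacyl-tRNA synthetases are the enzymes that join each amino acid to its transfer RNA, and so supply every ribosome with charged tRNA. Their 36 genes were taken from the heart RNA tables by gene symbol: a one-letter amino acid code followed by ars with or without a final 2, together with Farsa, Farsb and Eprs, and without Lars2. They stood among 13853 genes in the table of TAC and sham hearts and among 14073 in the table of TAC+PUE and TAC hearts, and all 36 were in both. Of them, 20 encode cytosolic enzymes and 16, with symbols ending in 2, encode mitochondrial enzymes. The rule used names, not expression values.

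The study asked how the isoflavone puerarin (PUE) alters RNA in the pressure-overloaded mouse heart. C57BL/6 mice of 3 groups were compared, male according to the methods and 10 weeks old according to the labels. TAC+PUE mice underwent transverse aortic constriction, a ligature of the aortic arch that loads the left ventricle with pressure, and were injected intraperitoneally with puerarin, 100 mg/kg each day, starting 3 days ahead of it. TAC mice had the same surgery with saline, and sham mice had surgery without constriction and saline. Hearts were taken 21 days after surgery, and RNA of heart tissue from 3 randomly selected mice of each group was sequenced. Each library was 1 mouse, so the p-values below measure the spread between mice.

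Cells keep separate sets of these enzymes. The cytosolic set serves the products of nuclear genes, and the mitochondrial set, also encoded in the nucleus, serves the 13 mRNAs of the mitochondrial genome. Glycyl- and lysyl-tRNA synthetase are exceptions, since the genes Gars and Kars each give an enzyme to both compartments, and mitochondria make glutaminyl-tRNA by an indirect route with no synthetase of its own. In the cytosol, Eprs, Iars, Lars, Mars, Qars, Kars, Rars and Dars are bound in 1 large particle, the multi-synthetase complex, by the scaffold proteins Aimp1, Aimp2 and Eef1e1. Many cytosolic synthetase genes are induced by the transcription factor ATF4 when amino acids run short or unfolded proteins accumulate.

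The DNA element bound by ATF4 was therefore looked for in the promoters, from 250 bases before to 50 bases after each RefSeq transcription start (build GRCm38.p6). RefSeq windows were matched for 26 of the 36 genes, 13 of each compartment. The letters TGATGNAA, on either strand, were found in 5 of 13 cytosolic and 0 of 13 mitochondrial genes, against 3.97% of all 32851 windows. A synthetase gene was counted if any of its windows held a match, whereas the share of all is per window. The consensus element of NRF1, a regulator of respiratory genes, was found in 0 of the 26 genes, against 0.971% of all windows. The stretches of the 5 genes with an ATF4-type match are shown. Each runs 5′ to 3′ on the strand of the gene, from 120 bases before to 30 bases after the start, with the match in capitals. Yars lies at chr4:129189783-129189932 (plus strand), Aars at chr8:111033722-111033871 (plus), Iars at chr13:49682010-49682159 (plus), Tars at chr15:11399629-11399778 (minus) and Gars at chr6:55037881-55038030 (plus).
Yars: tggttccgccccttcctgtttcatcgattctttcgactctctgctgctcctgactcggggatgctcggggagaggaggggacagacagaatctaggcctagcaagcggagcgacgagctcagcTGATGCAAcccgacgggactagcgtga
Aars: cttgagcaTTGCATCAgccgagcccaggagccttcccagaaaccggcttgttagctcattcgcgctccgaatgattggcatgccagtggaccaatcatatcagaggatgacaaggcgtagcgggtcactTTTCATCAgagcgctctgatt
Iars: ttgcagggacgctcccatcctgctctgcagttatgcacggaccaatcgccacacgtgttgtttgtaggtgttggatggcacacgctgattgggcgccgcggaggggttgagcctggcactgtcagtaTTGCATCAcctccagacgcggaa
Tars: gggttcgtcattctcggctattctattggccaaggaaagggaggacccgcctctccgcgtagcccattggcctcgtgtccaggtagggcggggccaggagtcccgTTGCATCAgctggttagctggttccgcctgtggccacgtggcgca
Gars: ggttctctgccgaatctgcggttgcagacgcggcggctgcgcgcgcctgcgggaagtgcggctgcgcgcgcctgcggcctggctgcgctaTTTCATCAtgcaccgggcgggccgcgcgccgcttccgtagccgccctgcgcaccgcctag
In Yars the element reads forward, and in the other four it reads on the opposite strand, so that TTGCATCA and TTTCATCA appear. Aars holds 2 matches and the others 1 each. A match describes the letters only, and binding was not measured. Yars and Aars were higher in TAC than in sham hearts, Iars and Tars were lower, and Gars did not pass the test, with values below.

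Expression was deposited as FPKM, fragments scaled by transcript length and library size, which is comparable between genes because of the division by length. Cytosolic synthetases had a median of 9.84 FPKM in TAC+PUE, 8.50 FPKM in TAC and 9.41 FPKM in sham hearts, taken over the means of their 20 genes. The 16 mitochondrial genes had medians of 3.75, 3.93 and 3.55 FPKM in the same order of groups. Asparaginyl-tRNA synthetase, Nars, had the highest level of the family, at 30.9 ± 1.67 FPKM in TAC+PUE, 24.7 ± 2.01 FPKM in TAC and 27.8 ± 0.37 FPKM in sham hearts (SD, n = 3). Among mitochondrial genes Iars2 was highest in sham hearts at 13.1 ± 0.48 FPKM. At the other end, Wars2 and Pars2 lay at 0.35 to 1.40 and 0.50 to 1.85 FPKM over the 9 hearts. They fell under the minimum of 1 FPKM in at least 3 of 6 libraries and were not tested, except Wars2 in the comparison of TAC+PUE with sham. The libraries themselves differed in composition. The 13 mitochondrial mRNAs took 14.2 to 25.9% of summed FPKM in TAC+PUE, 2.81 to 7.04% in TAC and 31.6 to 42.9% in sham hearts. The rRNA-like transcripts Gm26917 and Gm42418 made up 1.11 to 2.52% of it in TAC+PUE, 4.81 to 7.50% in TAC and 0.519 to 1.11% in sham hearts. The atrial myosin Myl7 was above 100 FPKM in TAC+PUE replicates 2 and 3 and TAC replicate 3. It was 27.4 FPKM in TAC+PUE replicate 1, 79.8 FPKM in TAC replicate 1 and 1.6 FPKM in TAC replicate 2. Sham hearts lay between 0.857 and 1.07 FPKM. Leaving out the libraries above 100 FPKM therefore kept TAC+PUE replicate 1 and TAC replicate 1, where Myl7 was also above the sham range. All 4 cardiomyocyte markers (Myh6, Tnnt2, Actc1, Tnni3) were detected in every heart, with a summed level of 6304 to 6438 FPKM in TAC+PUE, 8426 to 10039 FPKM in TAC and 5403 to 6169 FPKM in sham hearts. In such bulk RNA, fewer cells of a type and less RNA per cell cannot be told apart.

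TAC against sham asked what pressure overload alone did to the family. The synthetases split, with 11 of 34 tested genes higher in TAC than in sham hearts and 10 lower at a limma adjusted p under 0.05. Valyl-, tyrosyl- and alanyl-tRNA synthetases of both compartments were among the higher genes. Arginyl- and isoleucyl-tRNA synthetases of both compartments, aspartyl-tRNA synthetase and other members of the multi-synthetase complex were among the lower genes. Called genes made up 61.8% of the tested synthetases, against 63.0% of all 11687 genes tested, so the share is near the background. By direction, 32.4% were higher and 29.4% lower, against 25.3 and 37.7% of all genes. The median log2 fold change was -0.0078 for the family and -0.12 for all genes, on the scale of log2(FPKM + 1), which understates changes of low genes.

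**Figure D1:**
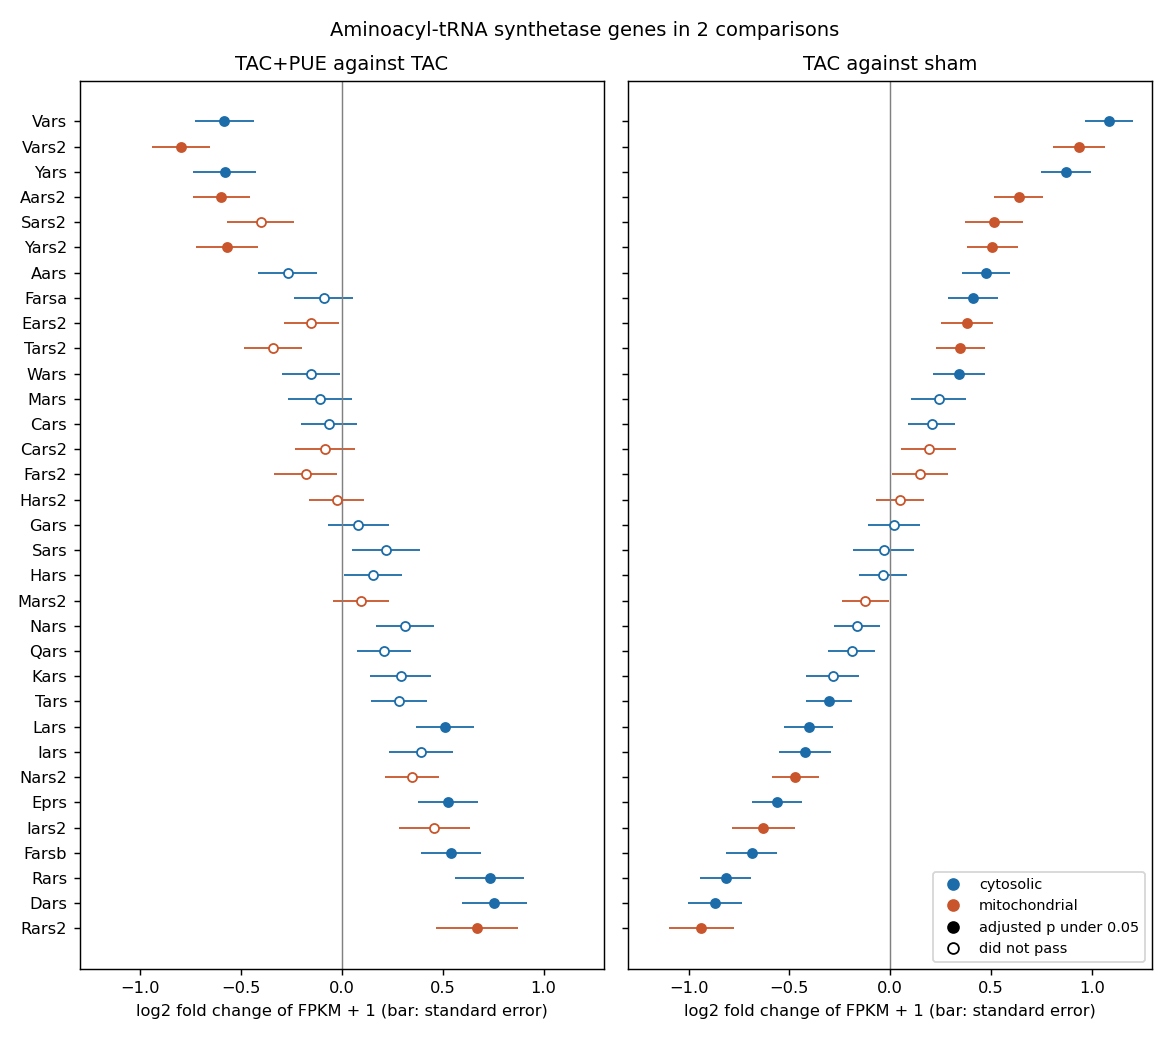
Log2 fold change of FPKM + 1 with its standard error for tested synthetase genes, TAC+PUE against TAC on the left and TAC against sham on the right, ordered by the right panel. Filled points passed an adjusted p of 0.05, and the right panel holds 11 filled points above 0 and 10 below it, with both compartments at each end. Both panels use the same 3 TAC hearts.

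Valyl-tRNA synthetases were the most increased. Vars, the cytosolic enzyme, had 6.97, 9.05 and 7.34 FPKM in TAC+PUE, 11.7, 12.3 and 12.3 FPKM in TAC and 4.73, 5.84 and 5.02 FPKM in sham hearts, and every TAC heart lay above every sham heart. Its log2 fold change in TAC against sham was 1.08 ± 0.12 (SE, limma adjusted p = 6.9e-05). Vars2, its mitochondrial counterpart, had 4.55, 5.64 and 4.45 FPKM in TAC+PUE, 9.12, 9.0 and 9.44 FPKM in TAC and 4.10, 5.19 and 3.79 FPKM in sham hearts. The 3 TAC values spanned 9.0 to 9.44 FPKM, above all sham values, and the log2 fold change was 0.94 ± 0.13 (SE, limma adjusted p = 0.0002).

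Tyrosyl-tRNA synthetases followed. Yars had 4.51, 5.81 and 4.23 FPKM in TAC+PUE, 7.90, 8.27 and 6.97 FPKM in TAC and 3.72, 4.13 and 3.43 FPKM in sham hearts, with no overlap between TAC and sham hearts and a log2 fold change of 0.87 ± 0.12 (SE, limma adjusted p = 0.00022). Yars2, which charges mitochondrial tyrosyl-tRNA, had 4.23, 5.27 and 4.16 FPKM in TAC+PUE, 6.89, 8.24 and 6.60 FPKM in TAC and 4.70, 5.23 and 4.46 FPKM in sham hearts, and its log2 fold change was 0.51 ± 0.13 (SE, limma adjusted p = 0.0057). In both genes the TAC hearts were the 3 highest of the 9.

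Alanyl-tRNA synthetases were higher in TAC in both compartments as well. Aars had 8.14, 9.21 and 7.71 FPKM in TAC+PUE, 10.1, 11.5 and 9.27 FPKM in TAC and 7.16, 7.23 and 6.91 FPKM in sham hearts, with a log2 fold change in TAC against sham of 0.47 ± 0.12 (SE, limma adjusted p = 0.0059). Aars2, a gene in which inherited defects cause infantile cardiomyopathy in man, had 6.43, 7.71 and 7.01 FPKM in TAC+PUE, 10.7, 11.8 and 11 FPKM in TAC and 6.49, 7.75 and 6.32 FPKM in sham hearts, with a log2 fold change of 0.64 ± 0.12 (SE, limma adjusted p = 0.0012). The lowest TAC heart exceeded the highest sham heart in each gene.

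Of the other higher genes, 3 were mitochondrial. Sars2, the mitochondrial seryl enzyme, had 2.36, 3.32 and 2.58 FPKM in TAC+PUE, 3.49, 4.85 and 3.57 FPKM in TAC and 2.17, 2.80 and 2.42 FPKM in sham hearts, and its log2 fold change was 0.51 ± 0.14 (SE, limma adjusted p = 0.0092). Ears2, the mitochondrial glutamyl enzyme, had 2.06, 2.23 and 2.06 FPKM in TAC+PUE, 2.22, 2.42 and 2.76 FPKM in TAC and 1.56, 2.03 and 1.42 FPKM in sham hearts, and its log2 fold change was 0.38 ± 0.13 (SE, limma adjusted p = 0.023). Tars2, the mitochondrial threonyl enzyme, had 4.67, 5.45 and 4.46 FPKM in TAC+PUE, 6.04, 6.64 and 6.58 FPKM in TAC and 4.50, 5.42 and 4.60 FPKM in sham hearts, and its log2 fold change was 0.35 ± 0.12 (SE, limma adjusted p = 0.028). In each, the TAC and sham hearts did not overlap. Of these, Sars2 lost its call without sham replicate 1 (adjusted p up to 0.0506), and Ears2 and Tars2 lost theirs without sham replicate 1 or 3 (up to 0.126 and 0.151), Tars2 also without TAC replicate 2.

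The remaining higher genes were cytosolic. Farsa, the alpha subunit of phenylalanyl-tRNA synthetase, had 3.54, 3.22 and 3.79 FPKM in TAC+PUE, 3.32, 4.27 and 3.87 FPKM in TAC and 2.45, 2.86 and 2.54 FPKM in sham hearts, and its log2 fold change was 0.41 ± 0.13 (SE, limma adjusted p = 0.015). Wars, the tryptophanyl enzyme, which interferon-gamma induces, had 8.32, 7.11 and 8.92 FPKM in TAC+PUE, 9.04, 8.97 and 9.26 FPKM in TAC and 6.31, 8.27 and 6.45 FPKM in sham hearts, and its log2 fold change was 0.34 ± 0.13 (SE, limma adjusted p = 0.038). Both separated TAC from sham hearts, Wars with a lowest TAC heart at 8.97 FPKM and a highest sham heart at 8.27 FPKM. Farsa did not pass without sham replicate 1 or 3 or TAC replicate 2 (adjusted p up to 0.0820). Wars did not pass without sham replicate 1 or 3 or TAC replicate 2 or 3 (up to 0.189).

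Arginyl-tRNA synthetases fell in both compartments, and Rars2 fell most of the family. Rars2, the mitochondrial enzyme, had 6.14, 3.65 and 4.41 FPKM in TAC+PUE, 1.96, 3.54 and 2.33 FPKM in TAC and 6.00, 5.37 and 6.03 FPKM in sham hearts, and its log2 fold change in TAC against sham was -0.94 ± 0.16 (SE, limma adjusted p = 0.00066). Rars, its cytosolic counterpart and a member of the multi-synthetase complex, had 14.2, 10.9 and 9.99 FPKM in TAC+PUE, 5.66, 7.48 and 6.71 FPKM in TAC and 13.1, 11.6 and 12.4 FPKM in sham hearts, and its log2 fold change was -0.82 ± 0.13 (SE, limma adjusted p = 0.00039). The highest TAC heart stayed below the lowest sham heart in both.

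Dars, the aspartyl enzyme of the complex, had 15.3, 12.4 and 12.9 FPKM in TAC+PUE, 6.22, 8.51 and 8.23 FPKM in TAC and 14.9, 14.4 and 14.8 FPKM in sham hearts, and its log2 fold change was -0.87 ± 0.13 (SE, limma adjusted p = 0.00034). Its TAC hearts lay between 6.22 and 8.51 FPKM and its sham hearts between 14.4 and 14.9 FPKM.

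Isoleucyl-tRNA synthetases were lower in TAC in both compartments. Iars2 had 12.3, 10.6 and 11.7 FPKM in TAC+PUE, 6.13, 8.92 and 9.75 FPKM in TAC and 13.3, 13.4 and 12.6 FPKM in sham hearts, and its log2 fold change was -0.63 ± 0.16 (SE, limma adjusted p = 0.0053). Iars, in the complex, had 12.1, 10.0 and 9.88 FPKM in TAC+PUE, 6.60, 8.91 and 8.20 FPKM in TAC and 11.2, 11 and 10.4 FPKM in sham hearts, with a log2 fold change of -0.42 ± 0.13 (SE, limma adjusted p = 0.016) that turned to 0.03 on removal of the rRNA-like transcripts. TAC and sham hearts did not overlap in either gene.

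Eprs and Lars of the complex were lower too. Eprs, a fusion of glutamyl- and prolyl-tRNA synthetase, had 9.64, 8.85 and 8.28 FPKM in TAC+PUE, 5.08, 6.59 and 6.03 FPKM in TAC and 8.94, 9.44 and 9.09 FPKM in sham hearts, and its log2 fold change was -0.56 ± 0.12 (SE, limma adjusted p = 0.0027). Lars, the leucyl enzyme and a leucine sensor of mTORC1, had 17.2, 18 and 18.5 FPKM in TAC+PUE, 10.9, 13.5 and 12.4 FPKM in TAC and 16.8, 17.6 and 15.3 FPKM in sham hearts, with a log2 fold change of -0.40 ± 0.12 (SE, limma adjusted p = 0.015) that became 0.07 on removal of the rRNA-like transcripts. In both, the 3 TAC hearts were the lowest of the 9. The call of Lars was lost without sham replicate 1 or 2 (adjusted p up to 0.0702) and that of Iars without sham replicate 1 (up to 0.0696).

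Farsb, the beta subunit of phenylalanyl-tRNA synthetase, had 10.2, 9.14 and 9.35 FPKM in TAC+PUE, 5.33, 6.78 and 6.78 FPKM in TAC and 11.1, 10.8 and 10.1 FPKM in sham hearts, and its log2 fold change was -0.69 ± 0.13 (SE, limma adjusted p = 0.00097). Nars2, the mitochondrial asparaginyl enzyme, had 1.63, 1.81 and 1.83 FPKM in TAC+PUE, 1.05, 1.04 and 1.44 FPKM in TAC and 1.84, 2.23 and 1.94 FPKM in sham hearts, and its log2 fold change was -0.47 ± 0.12 (SE, limma adjusted p = 0.0056). Tars, the cytosolic threonyl enzyme, had 6.59, 5.79 and 5.63 FPKM in TAC+PUE, 4.55, 4.73 and 4.97 FPKM in TAC and 6.06, 5.75 and 6.47 FPKM in sham hearts, with a log2 fold change of -0.30 ± 0.11 (SE, limma adjusted p = 0.04) that turned to 0.069 after rescaling to a common sum and to 0.13 without the rRNA-like transcripts. All 3 genes kept TAC hearts below sham hearts. The call of Tars was lost on leaving out any of sham replicates 1, 2 or 3 or TAC replicate 2 (adjusted p up to 0.182).

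The other 13 tested synthetases passed in neither direction, 8 cytosolic and 5 mitochondrial. Among them, the lysyl enzyme gene Kars had a log2 fold change of -0.29 and Mars, the methionyl enzyme, one of 0.24. Gars, mutated in a human peripheral neuropathy, had 19.2, 21.0 and 19.2 FPKM in TAC+PUE, 16.5, 21.7 and 18.2 FPKM in TAC and 18.3, 19.7 and 17.5 FPKM in sham hearts, and TAC and sham hearts overlapped. Hars and Hars2 are neighbouring genes, and although the library kit was stranded, strand-aware counting is not stated in the sources used here, and reads may have been shared where genes overlap. Hars had a log2 fold change of -0.04 and Hars2 of 0.05. Kars, Qars, Nars and Cars did not overlap between groups although they missed the threshold, the first 3 with every TAC heart below the sham hearts. Counted by ranges alone, 12 synthetases lay wholly higher and 14 wholly lower in TAC, or 35.3 and 41.2% of the 34, against 28.4 and 41.9% of all genes.

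**Figure D2:**
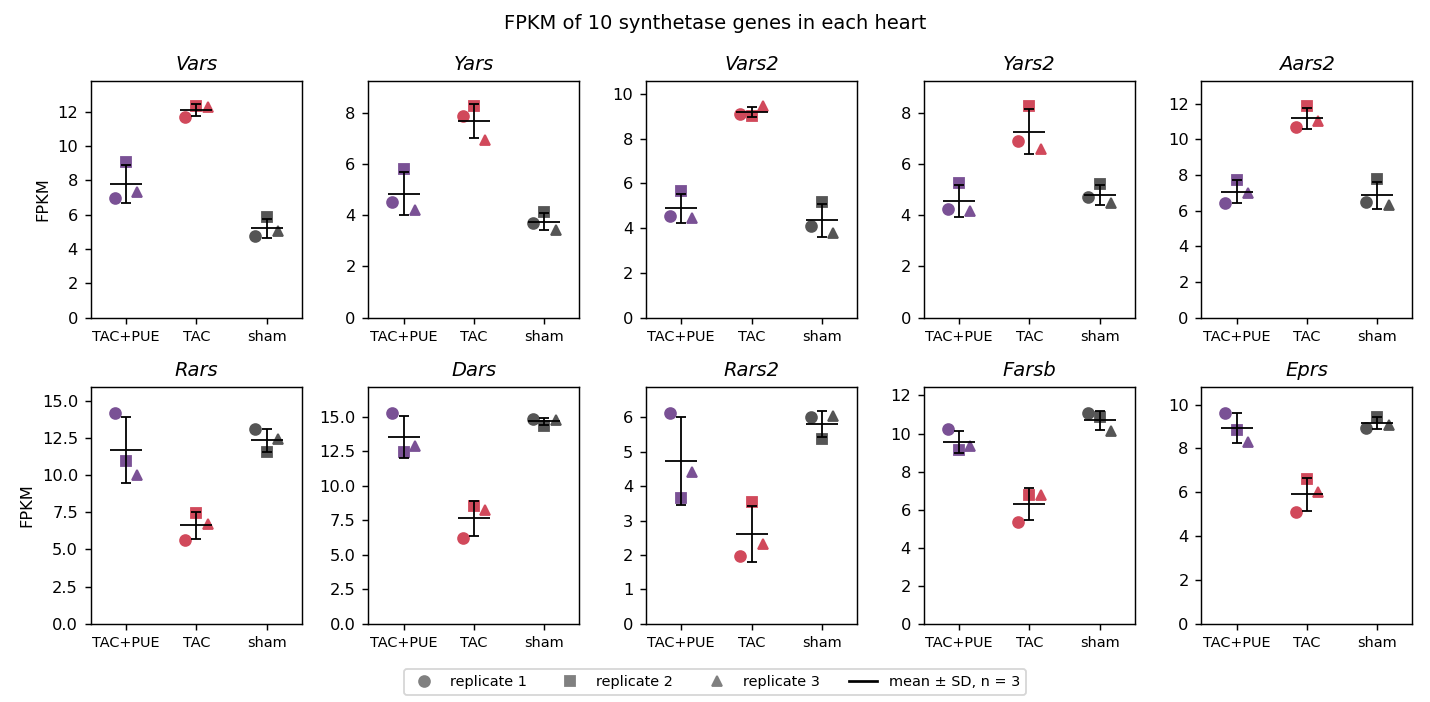
FPKM of 10 synthetase genes in each of 9 hearts, with TAC+PUE, TAC and sham from left to right, the mean as a bar and the SD of 3 hearts as whiskers. In the upper row all TAC hearts lie above all sham hearts, and in the lower row all TAC hearts lie below them. TAC+PUE hearts sit on the sham side of the TAC hearts in each panel.

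TAC+PUE against TAC asked what puerarin did under the same load. Fewer synthetases were called, 6 of 34 higher with puerarin and 5 lower (32.4%, against 38.4% of all 11788 genes tested). Aspartyl-, arginyl- and leucyl-tRNA synthetase, the glutamyl-prolyl enzyme and the beta subunit of the phenylalanyl enzyme were higher with puerarin. Valyl- and tyrosyl-tRNA synthetases of both compartments and the mitochondrial alanyl enzyme were lower. Among all genes 32.9% were higher and 5.45% lower, and among synthetases 17.6 and 14.7%. The family's median log2 fold change was 0.09, against 0.24 for all genes. Without the libraries of high Myl7, which left 1 TAC+PUE heart, 3 synthetases were higher and 1 lower, and TAC against sham then gave 10 higher and 11 lower.

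Dars showed the largest rise, with 15.3, 12.4 and 12.9 FPKM in TAC+PUE hearts against 6.22, 8.51 and 8.23 FPKM in TAC hearts. Its log2 fold change in TAC+PUE against TAC was 0.76 ± 0.16 (SE, limma adjusted p = 0.0062). Rars rose by 0.73 ± 0.17 (SE, limma adjusted p = 0.0081), and Rars2 by 0.67 ± 0.20 (SE, limma adjusted p = 0.025), on the log2 scale. The TAC+PUE hearts of Rars2 were spread from 3.65 to 6.14 FPKM, and the lowest of them stood just above the highest TAC heart, at 3.54 FPKM.

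Farsb, Eprs and Lars rose less. The log2 fold change of Farsb was 0.54 ± 0.15 (SE, limma adjusted p = 0.016), that of Eprs was 0.53 ± 0.15 (SE, limma adjusted p = 0.018) and that of Lars was 0.51 ± 0.14 (SE, limma adjusted p = 0.018). In all 3 genes every TAC+PUE heart was above every TAC heart. Without TAC+PUE replicate 1 the calls of Farsb, Eprs and Rars2 were lost, and Rars2 also failed without TAC replicate 1 or 3, while Lars failed without TAC+PUE replicate 3.

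Vars2 fell most, with 4.55, 5.64 and 4.45 FPKM in TAC+PUE hearts against 9.12, 9.0 and 9.44 FPKM in TAC hearts. Its log2 fold change was -0.80 ± 0.14 (SE, limma adjusted p = 0.0039). Aars2 changed by -0.60 ± 0.14 (SE, limma adjusted p = 0.0086), and Vars by -0.58 ± 0.15 (SE, limma adjusted p = 0.011). The log2 fold change of Yars was -0.58 ± 0.16 (SE, limma adjusted p = 0.015) and that of Yars2 was -0.57 ± 0.15 (SE, limma adjusted p = 0.015). None of the 5 genes overlapped between TAC+PUE and TAC hearts. Yars and Yars2 lost their calls without TAC+PUE replicate 1 or 3 or TAC replicate 2, and Vars without TAC+PUE replicate 3 (adjusted p 0.0505).

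The other 23 tested synthetases did not pass in TAC+PUE against TAC. Closest were Iars2 with 0.46 ± 0.18 (SE, limma adjusted p = 0.061), Nars2 with 0.35 ± 0.13 (SE, limma adjusted p = 0.063) and Iars with 0.39 ± 0.16 (SE, limma adjusted p = 0.071), then Sars2 with -0.40 and Tars2 with -0.34 (adjusted p 0.0749 and 0.0783). Aars, which was higher in TAC than in sham hearts, had 8.14, 9.21 and 7.71 FPKM in TAC+PUE hearts against 10.1, 11.5 and 9.27 FPKM in TAC hearts, and missed the threshold with -0.27 ± 0.15 (SE, limma adjusted p = 0.17). By ranges alone, 14 synthetases were wholly higher and 9 wholly lower in TAC+PUE, or 41.2 and 26.5%, against 43.3 and 10.1% of all genes.

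All 11 synthetases called in TAC+PUE against TAC had been called in TAC against sham with the opposite sign. The same count was not made over all genes, of which 63.0% were called in TAC against sham, so it is not read as particular to synthetases. The 2 comparisons share the 3 TAC hearts, so a high or low TAC value enters both with opposite sign, and no overlap was tested. The values stand side by side for Vars2 at -0.80 and 0.94, for Dars at 0.76 and -0.87, for Rars at 0.73 and -0.82, for Aars2 at -0.60 and 0.64, and for Vars at -0.58 and 1.08.

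TAC+PUE against sham used no TAC heart. Vars alone passed, higher in TAC+PUE with 0.50 ± 0.12 (SE, limma adjusted p = 0.031), and 34 of 35 tested synthetases did not (2.86% called, against 17.3% of all 11931 genes tested, of which 14.6% were higher and 2.70% lower). The call of Vars was lost without TAC+PUE replicate 3 or sham replicate 1 or 3, so that 0 synthetases were then called higher, and also with median-ratio scaling or without rRNA-like and mitochondrial transcripts. Farsa followed with 0.32 ± 0.09 (SE, limma adjusted p = 0.05), and its TAC+PUE hearts, at 3.22 to 3.79 FPKM, lay above its sham hearts, at 2.45 to 2.86 FPKM. The lowest log2 fold change was that of Rars2, with -0.27 ± 0.16 (SE, limma adjusted p = 0.24). The limma standard errors of the 35 genes ran from 0.071 to 0.257, and a missed threshold does not show that the levels were alike. Wholly higher in TAC+PUE were 8 synthetases and wholly lower 2, or 22.9 and 5.71%, against 32.5 and 10.1% of all genes.

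Cytosolic and mitochondrial genes both split. In TAC against sham, 5 of 20 cytosolic genes were higher and 7 lower, with a median log2 fold change of -0.10, and 6 of 14 tested mitochondrial genes were higher and 3 lower, with a median of 0.17. As shares, cytosolic genes were 25% higher and 35% lower, near the 25.3 and 37.7% of all genes, and mitochondrial genes 42.9 and 21.4%. Between TAC+PUE and TAC, 5 cytosolic genes were higher and 2 lower (median 0.21), and 1 mitochondrial gene was higher and 3 lower (median -0.12). These were 25 and 10% of cytosolic and 7.14 and 21.4% of mitochondrial genes, beside 32.9 and 5.45% of all genes. The cytosolic median turned above 0 in TAC against sham after rescaling to a common sum (0.32) and below 0 in TAC+PUE against TAC (-0.01), as did that without rRNA-like transcripts (0.37 and -0.06). The mitochondrial median minus the cytosolic one was 0.27 in TAC against sham and -0.33 in TAC+PUE against TAC, and over the 4 scalings it ran from 0.21 to 0.29 and from -0.38 to -0.29. Heart by heart, with each gene set against its sham mean, this difference was -0.14, -0.03 and -0.16 in TAC+PUE, 0.27, 0.23 and 0.40 in TAC and -0.07, 0.08 and -0.02 in sham hearts on the log2 scale. The 3 TAC hearts were the highest of the 9.

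Genes for the same amino acid were compared across compartments for 11 amino acids with both enzymes tested. Their log2 fold changes in TAC against sham had the same sign for 7 of 11, and in TAC+PUE against TAC also for 7 of 11. Both enzymes passed higher in TAC for valine, tyrosine and alanine, and both passed lower for arginine and isoleucine. Iars and Iars2, however, each kept the call under only 2 of the 4 scalings. Threonine split, since Tars was lower and Tars2 higher in TAC, though Tars turned above 0 under 2 scalings as given above. Eprs and Ears2, which both charge glutamyl-tRNA, had log2 fold changes of -0.56 and 0.38.

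**Figure D3:**
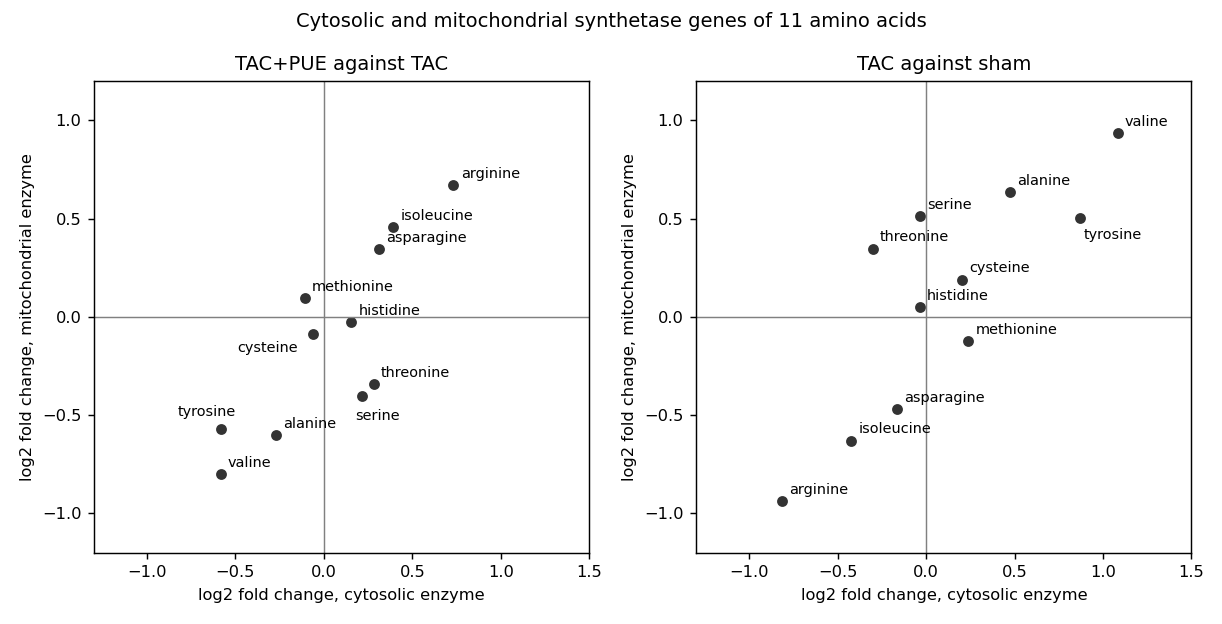
Log2 fold change of the mitochondrial enzyme against that of the cytosolic enzyme for 11 amino acids, TAC+PUE against TAC on the left and TAC against sham on the right. Valine, tyrosine and alanine lie at the upper right in TAC against sham, and arginine and isoleucine at the lower left. Both panels use the same 3 TAC hearts.

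The 2 subunits of cytosolic phenylalanyl-tRNA synthetase, which join in equal numbers in the enzyme, moved apart. The ratio of Farsb to Farsa FPKM was 2.89, 2.84 and 2.47 in TAC+PUE hearts, 1.60, 1.59 and 1.75 in TAC hearts and 4.53, 3.79 and 3.99 in sham hearts. The 3 groups did not overlap, with TAC+PUE between the others. Such a ratio within a heart does not depend on how its library was scaled. The ratios were chosen after the values had been seen and were not tested.

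Other ratios were taken of a gene called lower to a gene called higher in TAC against sham. That their TAC hearts lie below sham hearts therefore follows from the choice of genes. Rars to Vars was 2.04, 1.21 and 1.36 in TAC+PUE hearts, 0.484, 0.608 and 0.547 in TAC hearts and 2.77, 1.98 and 2.47 in sham hearts. Rars2 to Vars2 was 1.35, 0.648 and 0.991 in TAC+PUE hearts, 0.215, 0.393 and 0.247 in TAC hearts and 1.46, 1.04 and 1.59 in sham hearts. The TAC hearts were lowest in both, and TAC+PUE replicate 1 lay within the sham range in each. Dars to Yars was 3.40, 2.14 and 3.05 in TAC+PUE hearts, 0.787, 1.03 and 1.18 in TAC hearts and 3.99, 3.48 and 4.32 in sham hearts. For Iars2 to Aars2 the values were 1.92, 1.38 and 1.67 in TAC+PUE hearts, 0.574, 0.753 and 0.887 in TAC hearts and 2.06, 1.74 and 1.99 in sham hearts.

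**Figure D4:**
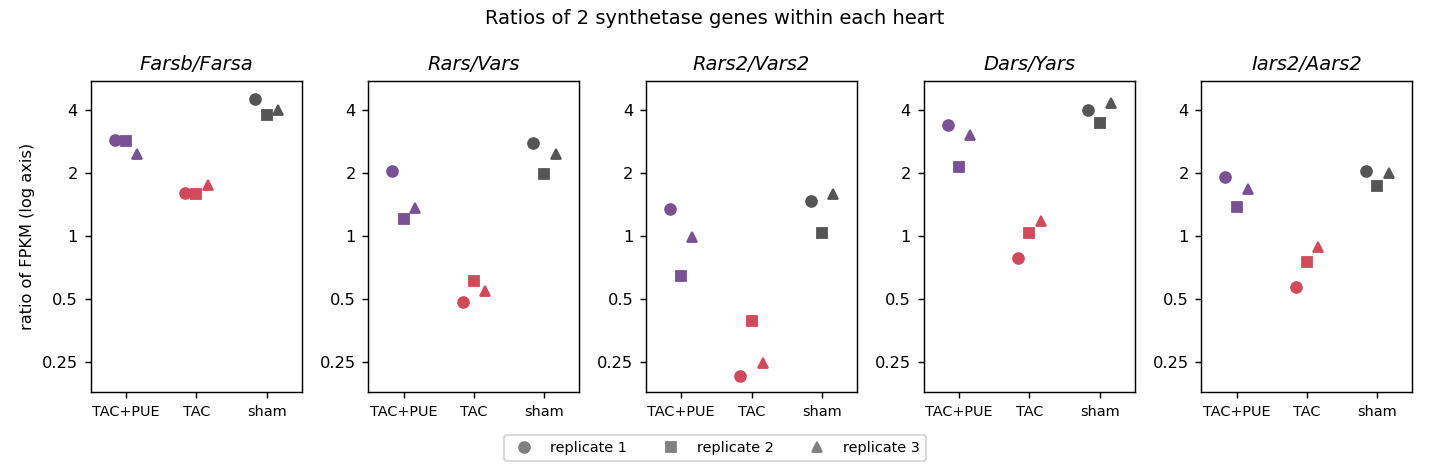
Ratio of the FPKM of 2 synthetase genes within each of 9 hearts, on a log axis, with TAC+PUE, TAC and sham from left to right. Each point is 1 heart. In all 5 panels the 3 TAC hearts are the lowest, and the Farsb to Farsa ratio separates all 3 groups. Each ratio sets a gene called lower over a gene called higher in TAC against sham, so TAC below sham follows from the choice.

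Library composition moved with some of these genes inside the TAC+PUE and sham groups, and less clearly among TAC hearts. Among sham hearts, replicate 2 had the lowest share of mitochondrial mRNA (31.6%, against 41.6 and 42.9%) and the highest rRNA-like share (1.11%, against 0.538 and 0.519%). It also had the highest Vars, Vars2, Yars, Yars2 and Aars2 of the 3 and the lowest Rars, Rars2 and Dars. Of the other genes lower in TAC, Tars was also lowest there. Eprs, Lars, Iars2 and Nars2 were instead highest there, and Iars and Farsb lay in the middle. Among TAC+PUE hearts, replicate 2 likewise had the lowest mitochondrial share (14.2%, against 25.9 and 22.7%) and the highest rRNA-like share (2.52%, against 1.11 and 1.57%). It had the highest Vars, Vars2, Yars, Yars2 and Aars2 and the lowest Rars2 and Dars of its group. Iars2 and Farsb were also lowest there, whereas Rars, Eprs, Lars, Iars, Nars2 and Tars lay in the middle. Farsa and Wars, higher in TAC than in sham hearts, were lowest there. Among TAC hearts, replicate 1 had the lowest mitochondrial share (2.81%) and the highest rRNA-like share (7.50%), with the lowest Rars, Rars2 and Dars of the 3. It did not have the highest Vars, Vars2, Yars, Yars2 or Aars2, and its Vars and Aars2 were the lowest. Red blood cell markers (4 of 4 higher in TAC) summed to 1094 to 4128 FPKM in TAC+PUE, 3363 to 4713 FPKM in TAC and 752 to 926 FPKM in sham hearts. Endothelial markers summed to 156 to 196, 130 to 162 and 173 to 187 FPKM in the same order. These 4 markers did not move together in TAC against sham, with 2 lower (Cdh5 at -0.66 and Pecam1 at -0.51), 1 higher (Tie1 at 0.59) and Kdr not called. The part of these shares and markers in the synthetase values was not tested.

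How a library is scaled changed the balance of the calls. With the libraries rescaled to a common sum, 19 synthetases passed as higher in TAC hearts and 4 as lower, and with rRNA-like transcripts removed first, 20 and 3. Median-ratio scaling gave 13 and 12, and removal of both rRNA-like and mitochondrial transcripts 10 and 14. The median of all genes moved with it, from -0.24 to 0.28 over the 4 scalings, and the higher share of all called genes from 32.9 to 69.2%, against 40.1% as deposited. All higher genes but Wars, 10 of 11, passed higher under all 4 scalings, whereas 3 of the 10 lower genes, Dars, Rars and Rars2, passed lower under all 4. Of TAC+PUE against TAC, the counts higher and lower were 3 and 10 with median-ratio scaling, 2 and 11 with a common sum, 2 and 13 without rRNA-like transcripts and 8 and 7 without both kinds. The median of all genes lay between -0.0067 and 0.21 there, and the higher share of all called genes between 52.0 and 79.3%, against 85.8% as deposited. Dars and Rars of the 6 higher genes passed under all 4, as did all 5 lower genes.

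**Figure D5:**
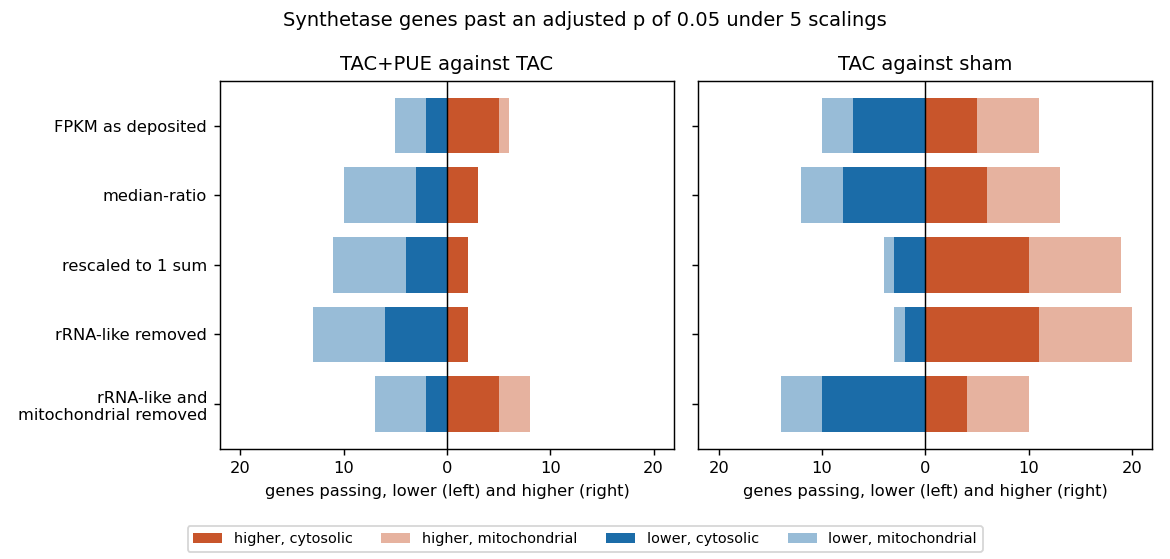
Number of synthetase genes past an adjusted p of 0.05 under 5 scalings, lower to the left and higher to the right of 0, with cytosolic genes in full colour and mitochondrial genes in pale colour. TAC+PUE against TAC is on the left and TAC against sham on the right. In TAC against sham the higher count runs from 10 to 20 and the lower count from 3 to 14.

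The multi-synthetase complex was followed as a list of 11 genes, its 8 enzymes and 3 scaffold proteins. In TAC against sham 6 were lower and 0 higher, beside 37.7 and 25.3% of all genes, with a median of -0.40 that became -0.00335 after rescaling to a common sum and 0.07 without rRNA-like transcripts. The counts lower and higher were 7 and 1 with median-ratio scaling, 3 and 1 with a common sum, 3 and 3 without rRNA-like transcripts and 8 and 0 without both kinds. The 6 were Dars, Rars, Eprs, Iars, Lars and Eef1e1, a scaffold protein also called p18, which had 3.14, 2.01 and 1.90 FPKM in TAC+PUE, 0.869, 1.2 and 1.11 FPKM in TAC and 2.19, 2.13 and 2.21 FPKM in sham hearts. Its log2 fold change in TAC against sham was -0.63 ± 0.11 (SE, limma adjusted p = 0.00068). The other scaffold genes, Aimp1 and Aimp2, did not pass, with -0.11 and -0.02. In TAC+PUE against TAC 5 of the 11 were higher and 0 lower, beside 32.9 and 5.45% of all genes (median 0.39, or 0.11 with 3 higher and 1 lower on removal of the rRNA-like transcripts), namely Dars, Rars, Eprs, Lars and Eef1e1. In TAC+PUE against sham 0 passed. By structural class, class I genes were 6 higher and 5 lower of 16 tested in TAC against sham (median 0.20), and class II genes 5 higher and 4 lower of 17 (median -0.03). The medians in TAC+PUE against TAC were -0.07 for class I and 0.15 for class II, and the difference between classes was not tested.

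A list of 14 genes related to tRNA charging split too. It shares Aimp1, Aimp2 and Eef1e1 with the complex, and Slc7a5 and Slc3a2 with the amino acid response list below. Eef1e1 is among its lower genes and Slc7a5 among its higher genes. Of 14, 3 passed as higher in TAC hearts and 5 as lower, beside 25.3 and 37.7% of all genes, with a median of -0.09 that became 0.31 after rescaling to a common sum. Aarsd1, which removes wrongly attached amino acids from the tRNA of alanine, had a log2 fold change of 0.82 ± 0.13 (SE, limma adjusted p = 0.00038), and Tarsl2, a second threonyl enzyme, one of -0.76 ± 0.12 (SE, limma adjusted p = 0.00039). With puerarin, Eef1e1 was higher (0.69) and Aarsd1 lower (-0.49) than in TAC, and the other 12 did not pass. Among 16 partners of the mitochondrial enzymes, in tRNA modification and mitochondrial translation, 3 were higher and 5 lower in TAC, against the same shares of all genes, with a median of -0.02 that became 0.37 after rescaling to a common sum. Gtpbp3, which modifies the wobble base of mitochondrial tRNA, had 3.70, 4.33 and 4.05 FPKM in TAC+PUE, 7.40, 7.06 and 7.02 FPKM in TAC and 2.18, 2.74 and 2.25 FPKM in sham hearts. Mtif2, the mitochondrial initiation factor, had 11.8, 8.16 and 8.75 FPKM in TAC+PUE, 3.6, 6.48 and 6.80 FPKM in TAC and 12.1, 10.8 and 12.9 FPKM in sham hearts. Neither gene overlapped between TAC and sham hearts. The elongation factor gene Tsfm (0.81) and the pseudouridine synthase gene Pus1 (0.70) were higher in TAC, with Gtpbp3 at 1.27 and Mtif2 at -1.0. With puerarin, Gtpbp3 (-0.70), Tsfm (-0.69) and Pus1 (-0.46) were lower and Mtif2 (0.70) and Gatc (0.53) higher than in TAC, Gatc being a subunit of the enzyme that makes mitochondrial glutaminyl-tRNA.

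The wider amino acid response was read from a list of 25 genes other than synthetases, ATF4 and its targets. Of 16 tested in TAC against sham, 8 were higher and 2 lower, with a median log2 fold change of 0.34, beside 25.3% higher and 37.7% lower among all genes. The transcription factor gene Atf5 (1.28) and the stress cytokine gene Gdf15 (1.14) were higher, and the lipoprotein receptor gene Vldlr (-1.14) and the arginine carrier gene Slc7a1 (-0.92) lower. Atf4 itself had 42.3, 49.6 and 42.2 FPKM in TAC+PUE, 30.2, 41.8 and 40.0 FPKM in TAC and 28.2, 30.2 and 29.3 FPKM in sham hearts. Atf4 did not pass in TAC against sham (0.33, limma adjusted p = 0.061) or in TAC+PUE against TAC (0.26, limma adjusted p = 0.24). In TAC+PUE against TAC, 6 of 20 were higher and 1, Atf5, was lower (-0.73), beside 32.9% higher and 5.45% lower among all genes, and the counts became 2 and 3 on removal of the rRNA-like transcripts. Against sham, 11 of 19 were higher and 2 lower in TAC+PUE hearts, beside 14.6 and 2.70% of all genes, among them Gdf15 (1.26), the folate enzyme gene Mthfd2 (0.93) and the stress-response genes Nupr1 (0.87) and Ddit3 (0.86) higher, while of the synthetases only Vars passed in that comparison. Interferon-induced genes, a class to which Wars belongs, were 4 higher and 0 lower of 12 in TAC against sham, against the same shares of all genes as above, led by Isg15 (1.52), Tap1 (1.45), Psmb9 (1.16) and Psmb8 (1.09). They were 2 higher and 0 lower of 13 in TAC+PUE against TAC, Gbp4 (0.94) and Gbp2 (0.86), which became 0 and 2 without the rRNA-like transcripts, and 11 higher of 13 in TAC+PUE against sham, where the shares of all genes were those given above. Wars, by comparison, had log2 fold changes of 0.34, -0.15 and 0.19 in these 3 comparisons.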

How the data were processed

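RNA of 9 mouse hearts was sequenced, 3 each of TAC+PUE, TAC and sham, with groups and replicate numbers from the sample labels. The authors aligned reads with Hisat2, quantified them with StringTie and Ballgown, and deposited FPKM per gene in a pair of tables, TAC with sham hearts and TAC+PUE with TAC hearts. The genome build in the submitters' processing notes is mm9. TAC values are the same in both tables for the 13646 shared genes, so TAC+PUE was also set against sham. The table of TAC with sham hearts holds no gene with both group means below 0.500 FPKM, and the other table was not checked for this. Counts of reads per library are unknown: among 2028 low genes at most 8 shared 1 ratio between libraries, so read numbers could not be rebuilt and a count model was not used. The tests had been planned for either TPM, named in the methods, or FPKM, and were run on the deposited FPKM. All 9 libraries were used. The 4 deposited lists of lncRNA transcripts give transcript IDs only and were not analysed here.

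The fit used limma (version 3.58.1, R 4.3.3), eBayes with trend, on log2(FPKM + 1), 3 libraries against 3, over genes reaching 1 FPKM in 3 or more of the 6 libraries. Tests were two-sided, and p-values were adjusted over all genes tested (Benjamini-Hochberg, threshold 0.05). The method was tested on simulated data, in which 67 genes changed by 0.5, 67 by 1 and 66 by 2, and the others by 0. There a true log2 change of 0.5 was recovered in 25.4% of genes in TAC against sham and 4.48% in TAC+PUE against TAC. A change of 1 was recovered in 89.6 and 70.1%. In the data 63.0 and 38.4% of all genes were called, far more than were changed in the simulation. The adjustment of p-values was therefore stricter in the simulation, and its recovery is not that of the tests reported here. A synthetase that did not pass may still have changed. The values of 1 synthetase are not reported here, although it is counted among those tested. Members and lists were chosen with earlier results of these data known. The lists are the multi-synthetase complex, enzyme classes I and II, other tRNA charging genes, mitochondrial partners, amino acid response, interferon-induced genes, mitochondrial mRNAs and cell type markers. Genes called in either of the first 2 comparisons were described in full, other synthetases by range, and other lists by up to 4 genes of largest change. Eef1e1 and Atf4 with per-heart values, the within-heart ratios and the closest genes below the threshold were singled out after their values had been seen. Alternatives were pseudocounts of 0.1 and 5, no filter, a filter at 10 FPKM, eBayes without trend, 4 scalings (median ratio, a common sum of 1000000 as TPM, and removal of the rRNA-like Gm26917, Gm42418 and Lars2 without or with the mitochondrial mRNAs), a fit of 9 libraries, a replicate block, leaving out each library, and leaving out those with Myl7 of at least 100 FPKM. Gene names and promoters came from RefSeq tables (GRCm38.p6), matched by symbol, with Python 3.11.15 and pandas 2.3.3.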

Additional observations from a re-analysis of the deposited data

How the results depend on the processing

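The FPKM tables give no depth, so no counting error can be set on low genes. In TAC against sham, the higher and lower counts were 2 and 6 with a filter at 10 FPKM, which leaves 13 synthetases tested, 19 and 4 after rescaling to a common sum, and 20 and 3 without rRNA-like transcripts. Leaving out 1 library gave 6 to 12 higher and 7 to 11 lower, with 6 without sham replicate 1 and 7 without sham replicate 3. The mitochondrial minus cytosolic median ran from 0.23 to 0.34 there and was 0.17 with a pseudocount of 5. Signs turned, with a call as deposited or under the other scaling, in Hars (0.38 after rescaling to a common sum, 0.44 without rRNA-like transcripts), Sars (0.38 and 0.42), Tars (0.069 and 0.13), Nars (0.32, without rRNA-like transcripts), Lars (0.067) and Iars (0.033). In TAC against sham, values not called as deposited crossed 0 over the scalings in further genes, among them Kars (-0.42 to 0.19), Qars (-0.31 to 0.23), Mars2 (-0.23 to 0.20), Gars (-0.11 to 0.50) and Hars2 (-0.06 to 0.47). In TAC+PUE against TAC, the higher and lower counts were 2 and 2 at 10 FPKM, 3 and 10 with median-ratio scaling, 2 and 11 after rescaling to a common sum, 2 and 13 without rRNA-like transcripts, 11 higher in the fit of 9 libraries, and 3 and 1 without the libraries of high Myl7, where the 1 TAC+PUE heart left is assumed to vary like the TAC hearts. Leaving out 1 library gave 3 to 7 higher and 2 to 6 lower, with 3 and 3 without TAC+PUE replicate 1, 2 lower without TAC+PUE replicate 3 and 3 lower without TAC replicate 2. The median difference ran from -0.36 to -0.29 and was -0.20 with a pseudocount of 5. In TAC+PUE against sham, the higher count was 2 with a pseudocount of 0.1 or without trend, 4 after rescaling to a common sum or without rRNA-like transcripts, and 0 at 10 FPKM, with median-ratio scaling, without rRNA-like and mitochondrial transcripts and without high Myl7. Leaving out 1 library gave 0 to 1 higher (0 without TAC+PUE replicate 3, sham replicate 1 or sham replicate 3) and 0 to 1 lower (1 without TAC+PUE replicate 1). The median difference ran from -0.13 to -0.07 and was -0.22 at 10 FPKM. The cause of these shifts was not tested.

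Replicate numbers name samples only, and the correlations of same-numbered hearts did not all exceed 0.1 in any comparison (-0.02, -0.0031 and 0.06 in TAC against sham, -0.28, -0.11 and 0.20 in TAC+PUE against TAC, and 0.19, 0.31 and 0.04 in TAC+PUE against sham). With the number as a replicate block, 9 synthetases were higher and 9 lower in TAC against sham, 6 and 5 in TAC+PUE against TAC, and 1 and 0 in TAC+PUE against sham.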

Other observations

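Lars2, the mitochondrial leucyl-tRNA synthetase gene left out by the selection rule, had 2.71, 2.77 and 3.04 FPKM in TAC+PUE, 2.5, 3.39 and 3.02 FPKM in TAC and 2.48, 2.86 and 2.42 FPKM in sham hearts. The groups overlapped, and its log2 fold change was 0.14 in TAC against sham and -0.04 in TAC+PUE against TAC (limma adjusted p = 0.35 and 0.84). Counting it with the mitochondrial enzymes left their calls in TAC against sham at 6 higher and 3 lower. Pars2, the mitochondrial prolyl enzyme, was not tested, and its TAC hearts were uneven, at 1.59, 1.85 and 0.51 FPKM, against 0.71, 0.50 and 0.72 FPKM in sham hearts. The synthetases together took 0.146 to 0.159% of the FPKM sum without mitochondrial and rRNA-like transcripts in TAC+PUE, 0.140 to 0.152% in TAC and 0.163 to 0.166% in sham hearts. Of the whole sum they took 0.112 to 0.122% in TAC+PUE, 0.123 to 0.137% in TAC and 0.0922 to 0.110% in sham hearts, so that the order of TAC and sham depends on what the sum holds. RefSeq promoter windows had a median GC content of 53.7% in 9 synthetases higher in TAC, 57.0% in 8 lower and 60.7% in 8 that did not pass, against 52.7% in all windows, which is given as a description with no test.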
